A study of Mus musculus with 10 samples.

Results

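The genes described here encode the working parts of the lysosome in mouse mast cells: acid hydrolases with their cofactors, proteins of the lysosomal membrane, a pair of transcription factors that act on lysosomal genes, and the proton pump that acidifies the organelle. Members were chosen by name, with earlier results of these data known, so their shares of calls are descriptive beside those of all genes. They comprised 25 listed lysosomal genes, without the cathepsins, and 23 protein-coding genes whose symbol begins with Atp6v. These 48 members stood among 49671 gene rows, and each of the 25 listed genes was found. The filter on low counts kept 40 members (24 listed genes and 16 Atp6v genes) among 11247 tested genes. Tfeb, Atp6v0a4, Atp6v0e2, Atp6v1b1, Atp6v1c2, Atp6v1e2, Atp6v1fnb and Atp6v1g3 did not pass it. Atp6v1fnb matched by its symbol, but it is named as a neighbour of Atp6v1f and not as a pump subunit.

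The libraries came from cultured mast cells of mouse bone marrow (BMMCs), whose precursors turn into mast cells under interleukin 3 (IL-3). They were wild type, of the C57BL/6 strain, with a labelled age of 6 to 8 weeks, and had spent 6 to 8 weeks in IL-3, given as 5 ng/mL in the growth description and as 10 ng/mL in the source name. The question addressed by the design is how stem cell factor (SCF), which acts through the receptor tyrosine kinase KIT, and transforming growth factor β (TGF-β) change these cells after 72 h, alone and together. RNA was measured as read counts per gene from SmartSeq2 libraries, which copy full-length transcripts without molecular identifiers. There were 2 libraries of cells in IL-3 alone, 2 with SCF at 100 ng/mL, 2 with SCF plus TGF-β at 1 ng/mL, 2 with SCF plus TGF-β at 10 ng/mL, and 1 library for each of 1 and 10 ng/mL TGF-β without SCF. The labels give the SCF concentration for SCF alone and no time for IL-3 alone, and whether IL-3 was kept during stimulation is not given in the sources used here. Nothing in the labels says that replicates were separate cultures or mice, so the p-values below measure the spread between these libraries, which may be technical.

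Lysosomes break down proteins, lipids and glycans with hydrolases that work at acid pH. The vacuolar proton pump (V-ATPase) supplies that acidity: its V1 sector hydrolyses ATP on the cytosolic side and its V0 sector moves protons through the membrane. In mast cells the secretory granules are lysosome-related organelles, which share enzymes, membrane proteins and acidification with lysosomes. Transcription factors of the MiT/TFE family (TFEB, TFE3, MITF and TFEC) bind E-box motifs near the start of many lysosomal genes.

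The promoter windows of 4 members are shown. Gm2a and Glb1 had the lowest fold changes of all members when TGF-β was added to SCF. Lamp1 and Mcoln1 had more copies of an E-box core in their windows and were not called there. A relation between core number and fold change was not tested. Each window runs 5′ to 3′ on the gene's strand from 250 bases before to 50 bases after the start in RefSeq on GRCm38.p6. All 4 genes lie on the plus strand, at chr11:55097735-55098034 for Gm2a, chr9:114400828-114401127 for Glb1, chr8:13158911-13159210 for Lamp1 and chr8:3500269-3500568 for Mcoln1. Capitals mark the core CACGTG, with the flanking letters where the longer form TCACGTGA was found.
Gm2a: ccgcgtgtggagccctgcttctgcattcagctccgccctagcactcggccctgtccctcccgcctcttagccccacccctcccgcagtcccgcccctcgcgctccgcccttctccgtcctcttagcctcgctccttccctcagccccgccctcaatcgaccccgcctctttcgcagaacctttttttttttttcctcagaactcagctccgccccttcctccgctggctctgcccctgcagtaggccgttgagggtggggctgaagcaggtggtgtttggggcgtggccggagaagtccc
Glb1: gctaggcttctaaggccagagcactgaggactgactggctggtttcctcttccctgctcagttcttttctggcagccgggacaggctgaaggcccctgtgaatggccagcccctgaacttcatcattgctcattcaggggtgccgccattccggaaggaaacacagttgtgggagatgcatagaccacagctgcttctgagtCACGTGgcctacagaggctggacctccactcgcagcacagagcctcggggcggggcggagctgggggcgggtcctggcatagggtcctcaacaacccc
Lamp1: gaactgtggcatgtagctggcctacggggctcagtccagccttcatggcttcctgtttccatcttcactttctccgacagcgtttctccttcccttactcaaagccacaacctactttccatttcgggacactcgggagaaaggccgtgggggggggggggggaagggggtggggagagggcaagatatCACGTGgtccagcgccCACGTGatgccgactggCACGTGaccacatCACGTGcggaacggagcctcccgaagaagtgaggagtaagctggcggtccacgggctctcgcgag
Mcoln1: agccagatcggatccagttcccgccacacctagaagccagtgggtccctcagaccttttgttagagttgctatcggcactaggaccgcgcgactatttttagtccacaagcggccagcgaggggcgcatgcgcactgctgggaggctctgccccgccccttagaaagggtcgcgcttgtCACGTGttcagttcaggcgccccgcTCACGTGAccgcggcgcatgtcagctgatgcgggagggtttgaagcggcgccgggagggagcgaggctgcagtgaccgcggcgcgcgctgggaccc
The Gm2a window held no core, the Glb1 window held 1 at position -48 from the start, the Lamp1 window held 4 (the first at -61) and the Mcoln1 window held 2 (the first at -71). The Gm2a window ended before the start of the counted gene at chr11:55098115 and does not cover it. Both motifs read the same on either strand, and each TCACGTGA contains a CACGTG. A window was matched for 40 of the 48 members; Galns, Asah1, Atp6v0a2, Atp6v0d2, Atp6v1b2, Atp6v1c1, Atp6v1g1 and Atp6v1h were not matched. Some genes have several windows, and a gene was counted if any of its windows held the motif. The core was found for 9 of the 40 members (22.5%) against 2187 of 27025 genes (8.09%), and the longer form for 5 (12.5%) against 304 (1.12%). The 27025 are all genes of the RefSeq promoter set and were not limited to the tested genes. The 9 members were Lamp1, Mcoln1, Cln3, Glb1, Gaa, Atp6v0b, Atp6v0d1, Atp6v0e and Atp6v1a. Of the 13 members that fell when TGF-β was added to SCF, 11 had a window and 2 of these held the core (18.2%), Glb1 and Atp6v1a; of the other tested members, 7 of 21 did (33.3%). These matches describe letters in a window and were not tested as binding sites.

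Each library held between 1237382 and 2323916 counts on genes. Levels are given as CPM, counts scaled to library size, and 3 counts were worth 1.26 to 2.53 CPM. The library with 1 ng/mL TGF-β alone stood apart in the share of gene counts at named repeat loci, 14.3% against 3.03% to 9.27% in the others. All 10 mast cell markers passed the filter, with a summed level of 54700 to 91200 CPM per library. Of 15 macrophage markers 4 passed and 4 were at 0 in every library, among them C1qb, C1qc and Marco, and the summed level of the list, mostly the chemokine receptor Cx3cr1, was 391 to 422 CPM in IL-3, 99.6 to 254 CPM in the 6 SCF-containing libraries and 734 and 789 CPM with TGF-β alone. Neutrophil markers summed to at most 3.37 CPM, and Mpo, S100a8, S100a9 and Ltf were at 0. Lymphocyte and fibroblast markers summed to at most 12.4 and 3.85 CPM, eosinophil markers to 3.24 to 29.3 CPM, and basophil markers to 454 to 697 CPM. Dendritic cell markers summed to 10.5 to 16.4 CPM without TGF-β and 13.8 to 50.1 CPM with it, with Xcr1, Siglech and Ccr7 at 0. Of 9 erythroid and platelet markers 2 passed the filter, and the list summed to 1310 to 1830 CPM, with Pf4 and Ppbp at 0. In bulk RNA, fewer cells of a type and less RNA per cell cannot be told apart. Comparisons used edgeR's quasi-likelihood test over all 11247 genes, a member is called where its Benjamini-Hochberg adjusted p is under 0.05, and ± after a log2 fold change is its standard error.

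Adding TGF-β to SCF lowered 13 of 40 tested members (32.5%) and raised 0, with both doses averaged against SCF alone. Over all genes 5.34% were called lower and 3.92% higher. The median log2 fold change of the tested members was -0.29, beside 0.00 over all genes, and the range ran from -1.30 to 0.15. Of the 40 members, 37 had a negative fold change; the exceptions, Manba, Atp6v0c and Atp6v1f, were not called. At an unadjusted p under 0.05 edgeR still counted 0 members as higher and 15 as lower, and DESeq2 counted 0 and 9 at its adjusted threshold. In 20 members all 4 libraries with TGF-β lay below both SCF libraries, a pattern found in 15.8% of all tested genes. The count of 13 was 8 without SCF replicate 1. The summed mast cell markers also moved, from 77800 to 91200 CPM with SCF to 55200 to 68600 CPM with SCF and TGF-β. Of the 10 mast cell markers 4 were called lower and 0 higher. Of 9 dendritic cell markers 2 were tested, and 1, Itgax, was called higher (4.88 ± 0.85, adjusted p = 0.00101). The other was not called, and the median of the 2 was 1.97. Of 4 tested macrophage markers 1, Lyz2, was called lower (-2.66 ± 0.47, adjusted p = 0.00123) and 0 higher. Of 2 tested eosinophil markers 1, Ccr3, was called lower (-1.77 ± 0.35, adjusted p = 0.00278) and 0 higher. The part of these markers in the members' change was not tested.

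Among the glycolipid enzymes and cofactors, the lowest fold change was that of Gm2a, which encodes the GM2 ganglioside activator that presents the lipid to hexosaminidase A (chr11:55098115-55113029, GRCm38). Gm2a stood at 1317 and 1325 CPM in IL-3, 1605 and 1291 CPM with SCF, 702 and 563 CPM with SCF plus TGF-β at 1 ng/mL, 573 and 512 CPM with SCF plus TGF-β at 10 ng/mL, and 685 and 518 CPM with 1 and 10 ng/mL TGF-β alone. The 6 libraries with TGF-β lay together below the 4 without it, and the groups did not overlap. The log2 fold change against SCF was -1.30 ± 0.12 (adjusted p = 1.72e-06). Hexa, the α subunit of that hexosaminidase, stood at 282 and 287 CPM in IL-3, 400.2 and 389 CPM with SCF, 299, 258, 239.8 and 258 CPM in the 4 libraries with SCF and TGF-β, and 221 and 203 CPM with TGF-β alone. Both SCF libraries were above every other library for Hexa, and the fall with TGF-β was -0.58 ± 0.11 (adjusted p = 0.00282). Hexa shares 12.8% of its exon length with the opposite-strand gene Tmem202, and the strand setting of the counting is not given in the sources used here.

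Glb1 encodes β-galactosidase, which removes galactose from gangliosides and keratan sulphate (chr9:114401076-114474898). Its levels were 212 and 202 CPM in IL-3, 351 and 259 CPM with SCF, 152 and 122 CPM with SCF plus TGF-β at 1 ng/mL, 119.9 and 109 CPM with SCF plus TGF-β at 10 ng/mL, and 129 and 109 CPM with TGF-β alone. All 6 libraries with TGF-β lay below the IL-3 libraries, which in turn lay below the SCF libraries. The change was -1.28 ± 0.14 (adjusted p = 1.01e-05). Glb1 shares 5.5% of its exon length with the same-strand gene Tmppe. Neu1, the sialidase that works in a complex with β-galactosidase (chr17:34931253-34935953), stood at 71.5 and 80.2 CPM in IL-3, 78.2 and 92.1 CPM with SCF, 47.7, 51.3, 40.9 and 35.6 CPM with SCF and TGF-β, and 59.0 and 64.7 CPM with TGF-β alone. The libraries with both factors were the lowest 4 of the 10 for Neu1, and the change against SCF was -0.96 ± 0.15 (adjusted p = 0.000434).

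Of the other glycosidases 1 was called. Man2b1, lysosomal α-mannosidase, fell by 0.61 on the log2 scale (SE 0.13, adjusted p = 0.00655), from 607 and 482 CPM with SCF to between 318 and 436 CPM with both factors. Gusb, β-glucuronidase, had the same direction but missed the threshold at -0.50 ± 0.15 (adjusted p = 0.05003): its SCF libraries were at 177 and 265 CPM and the libraries with both factors between 141 and 176 CPM. With the replicate number as a block Gusb was called (-0.49 ± 0.13, adjusted p = 0.0175), as was the pump subunit Atp6v0d1 (-0.42 ± 0.12, adjusted p = 0.0245), which gave 15 members lower. Gaa, acid α-glucosidase, at -0.11 ± 0.14, Manba, β-mannosidase, at 0.11 ± 0.17, and the sulfatase Galns at -0.01 ± 0.31 were not called. Of these 8 genes, the 7 glycosidases and Galns, 4 fell and 0 rose, with a median of -0.54.

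Lipid and protein breakdown gave a divided picture. Asah1, acid ceramidase, fell by 0.57 (SE 0.14, adjusted p = 0.0175). Npc2, which binds cholesterol inside the lysosome, fell by 0.52 (SE 0.13, adjusted p = 0.0159), and the tripeptidyl peptidase Tpp1 by 0.57 (SE 0.12, adjusted p = 0.00393). Tpp1 went from 294 and 263 CPM with SCF to 197, 182, 179 and 190.5 CPM with both factors, with no overlap. By contrast the saposin precursor Psap at -0.08 ± 0.14 (adjusted p = 0.825), the acid lipase Lipa at -0.05 ± 0.17 and the palmitoyl thioesterase Ppt1 at -0.01 ± 0.12 were not called. The levels of Psap were 128 and 144 CPM with SCF and 117 to 139 CPM with both factors, so its groups overlapped. Of the 6 members grouped as lipid handling, which include Gm2a and not Tpp1, 3 fell.

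Among the membrane proteins 2 of 8 fell, both by less than the leading enzymes. Laptm5, a transmembrane protein of lysosomes in blood cells, went from 3352 and 3199 CPM with SCF to 2483, 2361, 2347 and 2467 CPM with both factors (-0.44 ± 0.10, adjusted p = 0.00623). Lamp2, one of the main lysosomal membrane glycoproteins, went from 422 and 437 CPM to 326, 347, 318 and 339 CPM (-0.37 ± 0.11, adjusted p = 0.0476). For both genes the groups did not overlap. The remaining 6 were not called, with values from -0.48 ± 0.26 for Scarb2, an integral protein of the lysosomal membrane, to -0.13 ± 0.27 for Lamp1. Between them lay the calcium channel Mcoln1 at -0.28 ± 0.16 (adjusted p = 0.329), Cln3 at -0.32 ± 0.17, the cystine exporter Ctns at -0.29 ± 0.23 and Laptm4a at -0.18 ± 0.14.

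**Figure D1:**
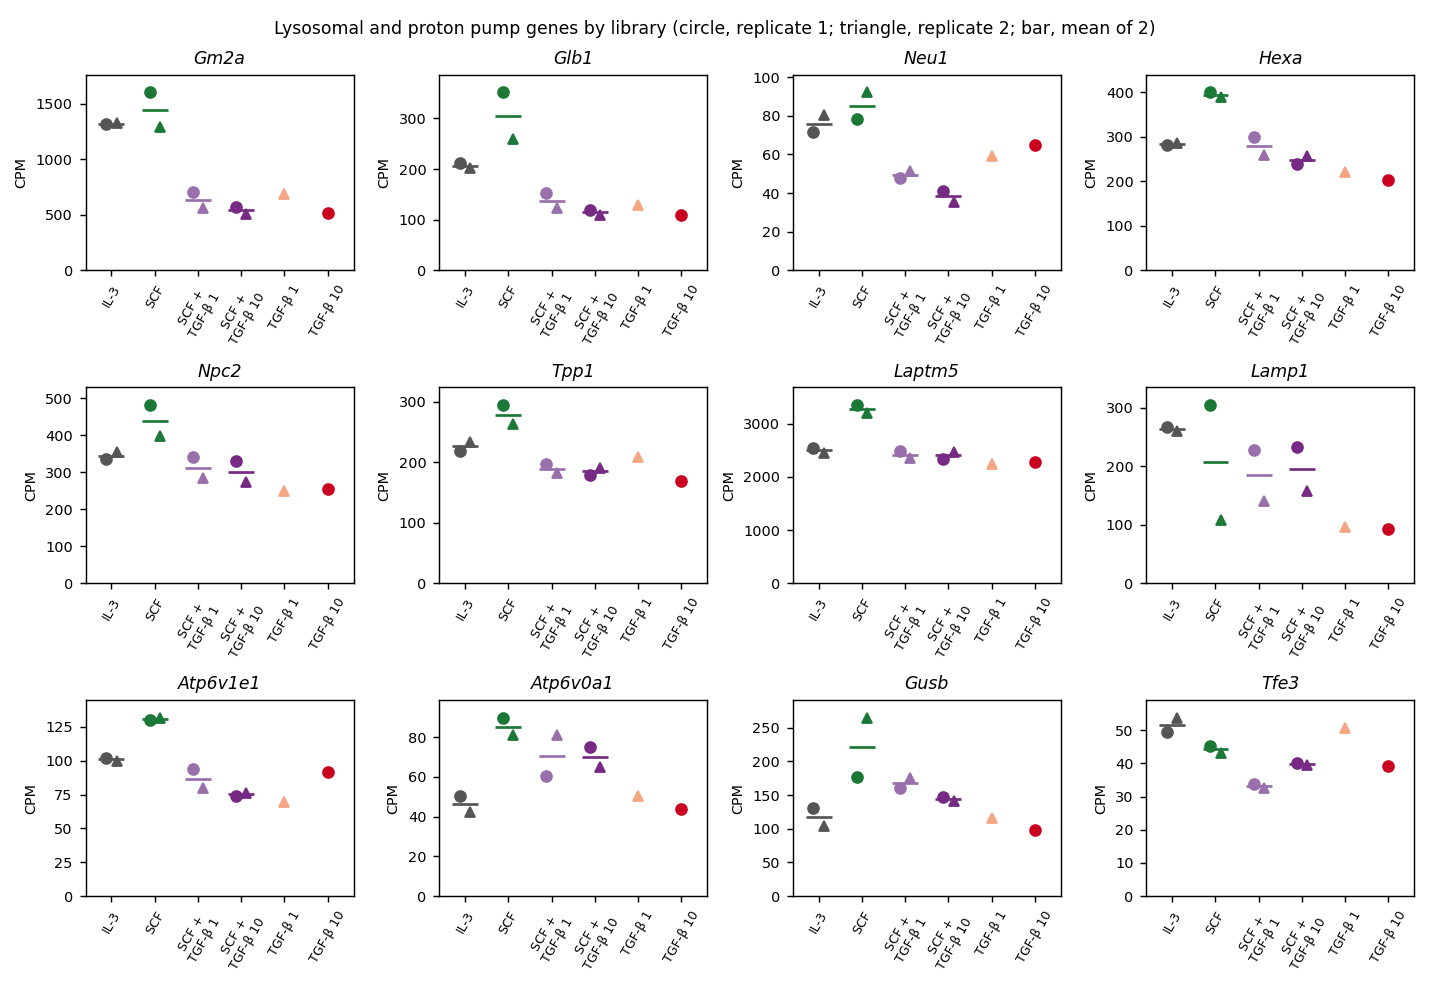
Level of 12 lysosomal and proton pump genes in CPM (vertical axes, starting at 0) in each of the 10 libraries by group, with circles for replicate 1, triangles for replicate 2 and bars for the mean of 2 libraries; TGF-β doses are in ng/mL. Gm2a and Glb1 were lower in the 6 libraries with TGF-β than in the 4 without it, and Lamp1 differed widely between the 2 SCF libraries (304 and 108 CPM).

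Lamp1, the other main membrane glycoprotein, differed between replicates more than between those groups. Its levels were 266 and 261 CPM in IL-3, 304 and 108 CPM with SCF, 228 and 140.4 CPM with SCF plus TGF-β at 1 ng/mL, 233 and 157 CPM with SCF plus TGF-β at 10 ng/mL, and 96.0 and 93.2 CPM with 1 and 10 ng/mL TGF-β alone. In each of the 3 SCF-containing groups the library numbered 1 was above the library numbered 2, whereas the IL-3 libraries were close together. The fold change of SCF with TGF-β against SCF was -0.13 ± 0.27 (adjusted p = 0.857), and it was 0.81 without SCF replicate 1 and 0.02 without replicate 2 of the group with SCF plus TGF-β at 1 ng/mL. Against IL-3, TGF-β alone lowered Lamp1 by 1.48 (SE 0.35, adjusted p = 0.0245), and SCF with TGF-β was above TGF-β alone by 1.01 ± 0.31 (adjusted p = 0.0262). Lamp1 (chr8:13159161-13175338) shares 249 exon bases, 9.3% of its exon length, with the opposite-strand gene Grtp1.

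SCF alone raised 5 of 40 tested members against IL-3 (12.5%) and lowered 0, where 5.71% of all genes were called higher and 3.46% lower. The 5 were the enzymes Gusb, Glb1 and Hexa, the membrane protein Laptm5 and the pump subunit Atp6v0a1. The members' median log2 fold change was 0.28, beside -0.02 over all genes, with a range from -0.86 to 1.17, and 33 of 40 were positive. At an unadjusted p under 0.05 edgeR counted 17 members as higher and 0 as lower, and DESeq2 counted 3 and 0 at its adjusted threshold. In 19 members both SCF libraries lay above both IL-3 libraries, a pattern found in 26.3% of all tested genes. The 5 calls were unstable: over 15 alternative fits, Gusb and Atp6v0a1 lost theirs in 2, Glb1 in 6, Hexa in 7 and Laptm5 in 8. Some of these fits left out libraries that are not part of this comparison. The fold changes stayed positive, at 0.59 to 1.16 for Gusb, 0.76 to 1.00 for Atp6v0a1 and 0.32 to 0.77 for Glb1. They were 0.45 to 0.50 for Hexa and 0.35 to 0.43 for Laptm5. With the replicate number as a block the count of 5 was 12, with Galns, Asah1, Atp6v0b, Atp6v0d1, Atp6v0e, Atp6v1a and Atp6v1h added. However, IL-3 libraries did not deviate together with same-numbered SCF libraries. Without SCF replicate 1, Lamp1 was called lower (-1.28 ± 0.28, adjusted p = 0.0110). Summed mast cell markers went from 65400 to 68300 CPM in IL-3 to 77800 to 91200 CPM with SCF. Of the 10 mast cell markers 2 were called higher (Cpa3 and Tpsb2) and 2 lower (Mitf and Slc18a2), with a median log2 fold change of 0.005. Summed macrophage markers went from 391 to 422 CPM in IL-3 to 99.6 to 201 CPM with SCF. Of the 4 tested macrophage markers 1, Cx3cr1, was called lower (-1.61 ± 0.25) and 0 higher, with a median log2 fold change of -0.18. The part of these markers in the members' values was not tested.

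Gusb and Atp6v0a1 had the highest fold changes among the called members. Gusb went from 131 and 105 CPM in IL-3 to 177 and 265 CPM with SCF (0.89 ± 0.18, adjusted p = 0.00628). Its SCF libraries were both higher than the IL-3 libraries but far apart from each other. Glb1 rose by 0.56 ± 0.16 (adjusted p = 0.0409), Hexa by 0.47 ± 0.13 (adjusted p = 0.0373) and Laptm5 by 0.39 ± 0.11 (adjusted p = 0.0399). Laptm5, at 2553 and 2450 CPM in IL-3 and 3352 and 3199 CPM with SCF, had closely placed replicates, yet its call was lost in 8 of the 10 fits that leave out 1 library. Gm2a did not pass the test with SCF (0.13 ± 0.14, adjusted p = 0.623), and neither did Neu1 (0.17 ± 0.17), Lamp2 (0.30 ± 0.13, adjusted p = 0.183), Psap (0.06 ± 0.17), Mcoln1 (0.07 ± 0.18) or Lamp1 (-0.34 ± 0.32, adjusted p = 0.560). The low-count genes Galns at 1.17 ± 0.42 and Scarb2 at 0.91 ± 0.33 had fold changes of the size of Gusb's and were not called.

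The comparison of SCF with IL-3 and that of SCF with TGF-β against SCF share the SCF libraries, so a chance high value there enters both with opposite sign. Glb1, Hexa and Laptm5 were called in both, higher with SCF and lower when TGF-β was added. Their values are therefore given side by side: Glb1 0.56 ± 0.16 and -1.28 ± 0.14, Hexa 0.47 ± 0.13 and -0.58 ± 0.11, and Laptm5 0.39 ± 0.11 and -0.44 ± 0.10. The second change exceeded the first in size for each gene, by the widest margin for Glb1.

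**Figure D2:**
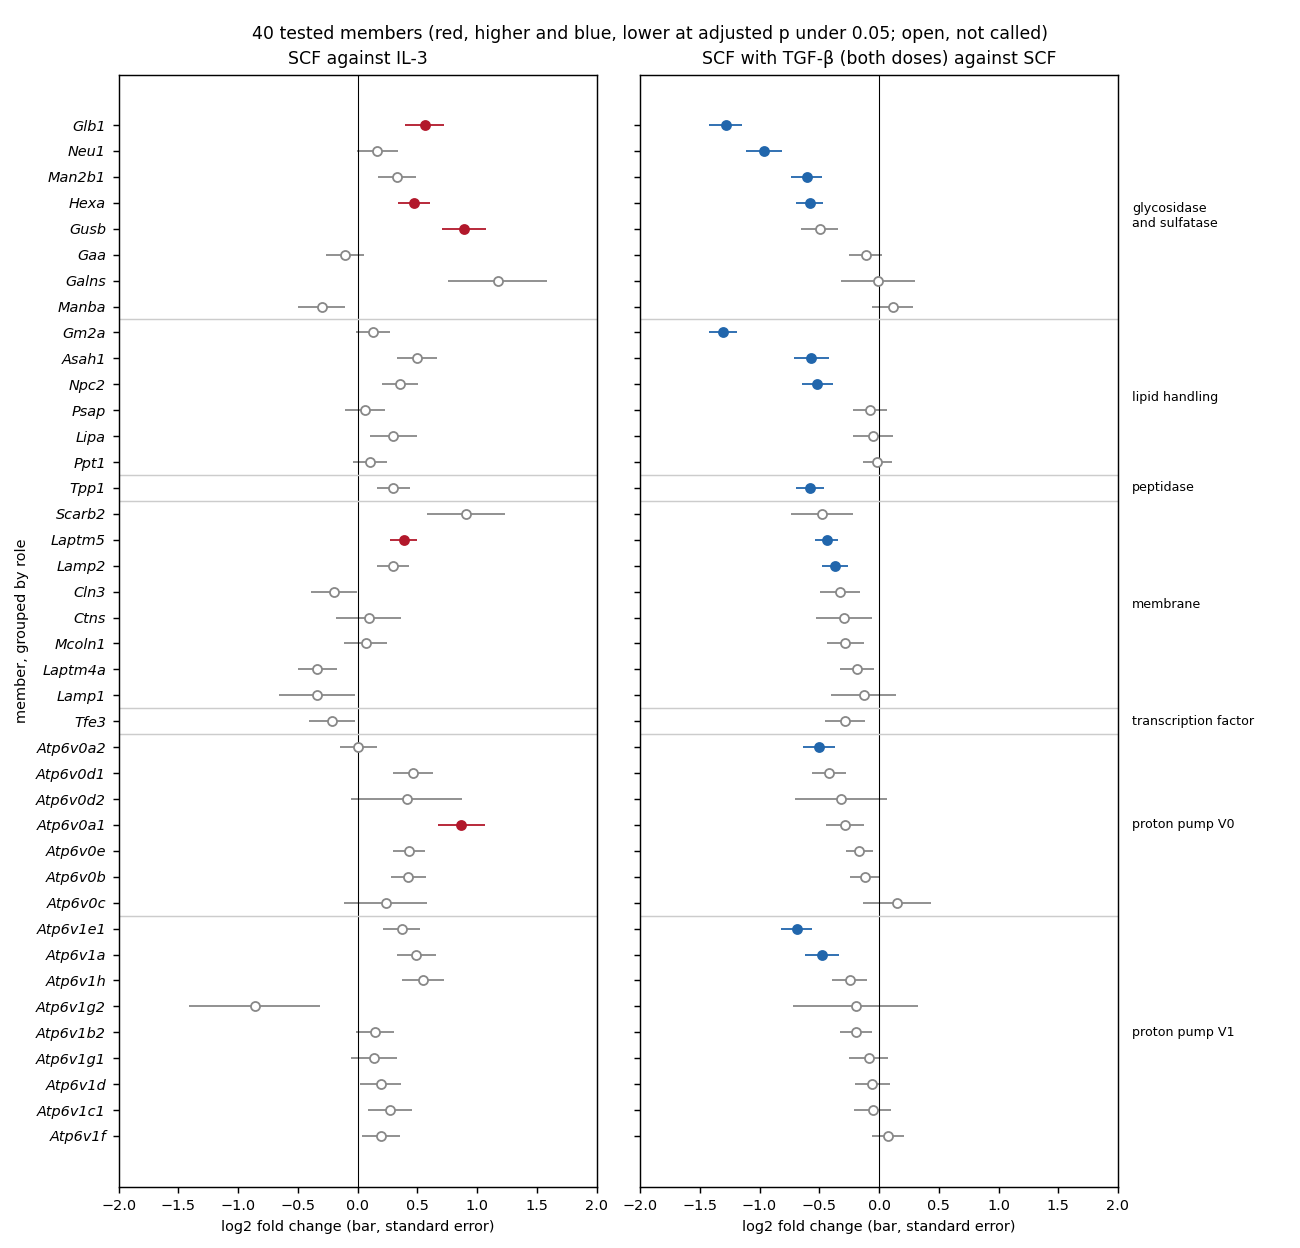
Log2 fold change (horizontal axes, bars for the standard error) of the 40 tested members for SCF against IL-3 (left) and SCF with TGF-β against SCF (right), grouped by role. Filled red and blue points passed the adjusted threshold as higher and lower: 5 rose on the left, and 13 fell on the right.

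TGF-β alone, compared with IL-3 over libraries that the TGF-β comparison within SCF does not use, lowered 4 of 40 members (10%) and raised 0, where 2.12% of all genes were called lower and 1.36% higher. The 4 were Gm2a (-1.15 ± 0.15, adjusted p = 0.000177), Lamp1 (-1.48 ± 0.35), Glb1 (-0.80 ± 0.18, adjusted p = 0.0163) and the pump subunit Atp6v0a2 (-0.80 ± 0.17, adjusted p = 0.0128). At an unadjusted p under 0.05 edgeR counted 0 members as higher and 8 as lower, and DESeq2 counted 0 and 2 at its adjusted threshold. Each dose had 1 library, which is assumed to vary as the replicated groups do. The count of 4 was 1 without IL-3 replicate 1 and 2 without IL-3 replicate 2 or either TGF-β library. Summed macrophage markers were higher in these TGF-β libraries (734 and 789 CPM) than in IL-3 (391 to 422 CPM). Of the 4 tested macrophage markers 1, Cx3cr1, was called higher (0.98 ± 0.24) and 0 lower, with a median log2 fold change of 0.09. Summed mast cell markers were lower (54700 and 54800 CPM against 65400 to 68300 CPM). Of the 10 mast cell markers 3 were called lower (Cpa3, Fcer1a and Hdc) and 1 higher (Tpsb2). Of 9 dendritic cell markers 2 were tested, and 1, Itgax, was called higher, as it was when TGF-β was added to SCF. Itgax stood at 17.7 and 38.5 CPM (21 and 50 counts), and the IL-3 libraries held 2 counts of it in all. The part of these markers in the members' values was not tested.

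Gm2a, Glb1 and Atp6v0a2 were thus called lower with TGF-β both in the presence and in the absence of SCF. Of the 13 members that fell within SCF, the other 10 had negative fold changes without SCF, from -0.08 ± 0.18 for Asah1 to -0.46 ± 0.18 for Atp6v1a, and did not pass the test. Across the 40 members the fold changes of these TGF-β comparisons had a Pearson correlation of 0.391 and a Spearman correlation of 0.459, beside 0.441 and 0.326 over all 11247 genes. These are correlations across genes, which are not independent replicates. The difference between the TGF-β effects itself was called for 0 of 40 members with edgeR and 0 with DESeq2, where 0.116% of all genes were called with a more positive and 0.178% with a more negative effect in SCF. At an unadjusted p under 0.05 there were 1 and 3 members. These were Lamp1, with a difference of 1.35 ± 0.45 (adjusted p = 0.327), and Neu1 (-0.67 ± 0.24), Glb1 (-0.48 ± 0.23) and Scarb2 (-0.97 ± 0.44). Without SCF replicate 1 the difference for Lamp1 was 2.29 ± 0.34 and was called (adjusted p = 0.0104). It was also called in the fit without a filter on low counts (1.37 ± 0.22, adjusted p = 2.18e-06) and with the replicate number as a block (1.41 ± 0.28, adjusted p = 0.0129).

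**Figure D3:**
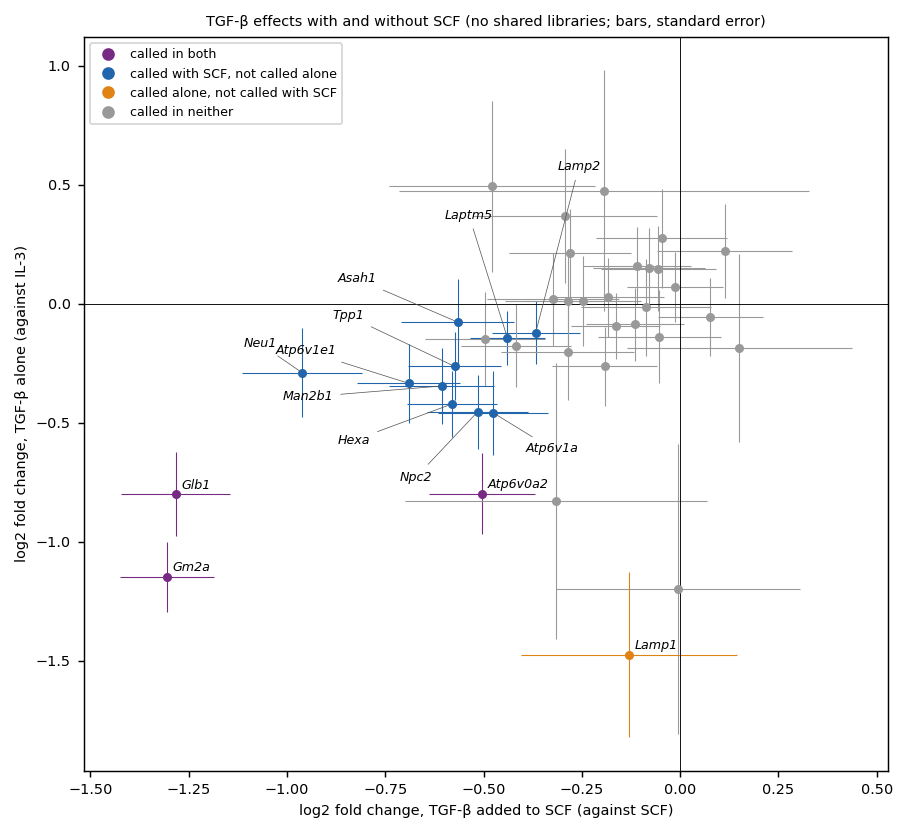
Log2 fold change of each tested member when TGF-β was added to SCF (horizontal axis) and when TGF-β was given alone, against IL-3 (vertical axis), with bars for standard errors; the axes share no library. Gm2a, Glb1 and Atp6v0a2 (purple) were called lower on both axes, and Lamp1 (orange) on the vertical axis.

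Between the TGF-β doses of 1 and 10 ng/mL in the presence of SCF, no member passed the test. Against a background of 0.00889% of genes called in each direction, edgeR called 0 of 40 members higher and 0 lower, also at an unadjusted p under 0.05, and DESeq2 called 0. The members' median was -0.05, and the values ran from -0.36 ± 0.19 for Neu1 to 0.36 ± 0.35 for Galns. For Gm2a the difference was -0.22 ± 0.14 and for Glb1 it was -0.26 ± 0.17, small beside their falls of over 1 log2 unit from SCF alone.

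With TGF-β present throughout, SCF raised 7 members (17.5%) and lowered 4 (10%) of 40, where 13.3% of all genes were called higher and 11.4% lower, so the members' shares lay near the background. This comparison shares no library with SCF against IL-3, although the TGF-β doses without SCF had 1 library each. Among the enzymes, Gusb rose by 0.54 ± 0.17 (adjusted p = 0.0279) and Neu1 fell by 0.51 (SE 0.17, adjusted p = 0.0365). Among the membrane proteins Lamp1 rose, as given above, while Cln3 fell by 0.54 (SE 0.17, adjusted p = 0.0308) and Laptm4a by 0.55 (SE 0.15, adjusted p = 0.0110). Laptm4a stood at 133.9 and 115 CPM with TGF-β alone and at 79.9 to 97.7 CPM with SCF and TGF-β, with no overlap. Cln3 shares 7.6% of its exon length with the opposite-strand gene Apobr. The count of 7 was 1 with DESeq2, 3 without replicate 2 of the group with SCF plus TGF-β at 1 ng/mL, 2 without replicate 1 of the group at 10 ng/mL, and 1 and 2 without the libraries of 1 and 10 ng/mL TGF-β alone. The count of 4 was 0 with DESeq2, 2 with no filter on low counts, 2 without replicate 2 of the group with SCF plus TGF-β at 1 ng/mL, 1 without replicate 2 of the group at 10 ng/mL, and 0 without the library of 1 ng/mL TGF-β alone.

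A low-count member had the largest fold change of that comparison. Galns, the sulfatase that acts on keratan sulphate and chondroitin sulphate, had 17 and 10 counts in IL-3, 27 and 37 with SCF, 27, 36, 41 and 42 with SCF and TGF-β, and 6 and 3 with TGF-β alone. Its TGF-β libraries without SCF were the lowest of the 10, and the difference was 2.36 ± 0.49 (adjusted p = 0.00204). The pump subunit Atp6v1g2 had 18 and 15 counts with TGF-β alone and 8 to 11 with both factors, a difference of -1.53 ± 0.47 (adjusted p = 0.0247). Across SCF against IL-3 and both factors against TGF-β alone, the 40 members' fold changes had a Pearson correlation of 0.673 and a Spearman correlation of 0.568, beside 0.628 and 0.606 over all genes. Gusb and Atp6v0a1 were called higher in both.

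Each of the lettered subunit families of the proton pump had at least 1 gene that passed the filter. Between genes, levels are compared as CPM per kilobase of exon (CPM/kb), with all annotated exons of a gene counted. The order of genes depends on these lengths, which were 1063 bases for Atp6v1f and 3712 bases for Atp6v0e. In CPM with SCF, Atp6v0e (261) stood above Atp6v1f (153). Atp6v1f was highest, at 103 to 161 CPM/kb by group, followed by Atp6v0b at 81.5 to 118.8 CPM/kb and Atp6v0d1 at 69.6 to 110.2 CPM/kb. Atp6v0c, the proteolipid that forms most of the rotor ring, was low at 2.24 to 4.44 CPM/kb; its annotated processed pseudogenes Atp6v0c-ps1 and Atp6v0c-ps2 had 4 and 13 counts in all, and reads shared with near-identical copies are uncertain.

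Where a subunit has several gene copies, 1 copy carried nearly all of the counts in most families. Among the a subunits, which help decide the membrane in which a pump sits, Atp6v0a2 stood at 8.77 to 17.7 CPM/kb and Atp6v0a1 at 6.70 to 13.0 CPM/kb by group. Tcirg1, the a3 subunit, was in the same range at 6.96 to 10.7 CPM/kb, and Atp6v0a4 had 1 count in all. Atp6v0d1 was far above Atp6v0d2 (1.70 to 6.67 CPM/kb). Atp6v0e, Atp6v1b2, Atp6v1c1 and Atp6v1e1 were at 13.1 CPM/kb or more in every group. Their paralogues Atp6v0e2, Atp6v1b1 and Atp6v1c2 had at most 2 counts in a library, and Atp6v1e2 had 0. Atp6v1g1 stood at 58.4 to 67.7 CPM/kb, Atp6v1g2 at 1.83 to 6.04 CPM/kb and Atp6v1g3 at 0 counts. A count of 0 in each library allows up to 3 counts, or 1.26 to 2.53 CPM, by counting error alone.

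**Figure D4:**
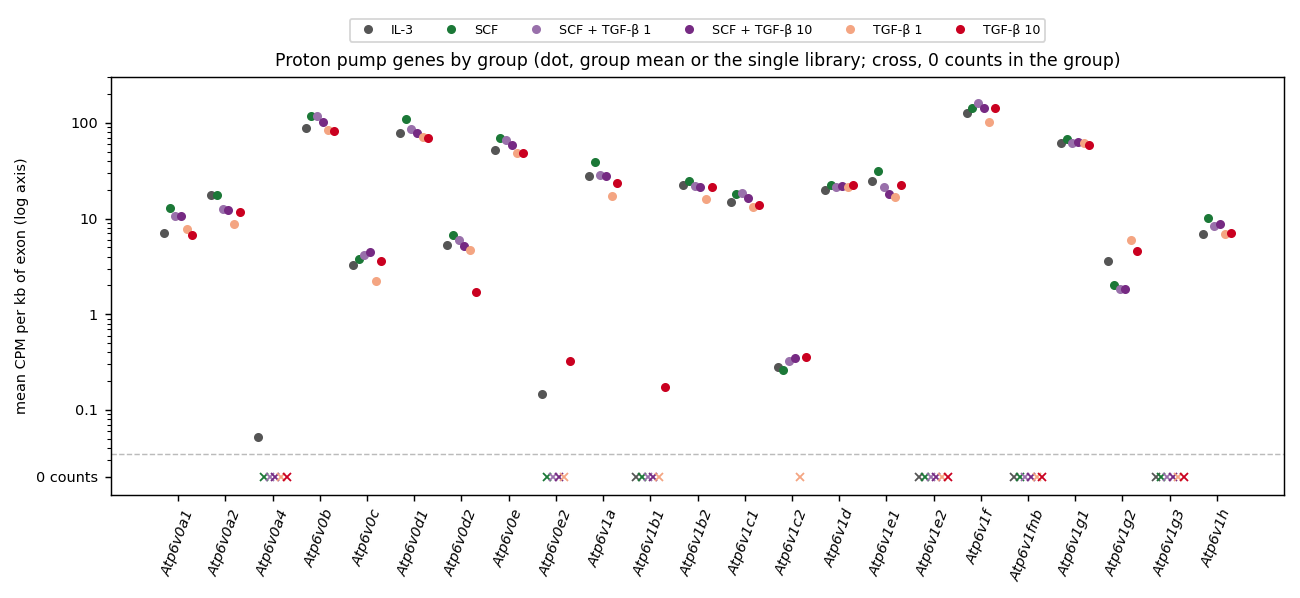
Mean level of the 23 Atp6v genes in CPM per kilobase of exon (vertical log axis) by group, with a dot for each group mean or single library and a cross below the dashed line for groups with 0 counts; TGF-β doses are in ng/mL. Atp6v1f, Atp6v0b and Atp6v0d1 were highest, and Atp6v1e2, Atp6v1fnb and Atp6v1g3 had 0 counts in every group.

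The V0 and V1 genes moved in small steps. SCF raised 1 of 16 tested pump genes (6.25%), a share near the 5.71% of all genes called higher. That gene was Atp6v0a1, which went from 50.4 and 42.5 CPM in IL-3 to 89.6 and 80.8 CPM (0.87 ± 0.20, adjusted p = 0.0110), with no overlap. It stayed at 60.3 to 80.8 CPM with SCF and TGF-β and stood at 50.5 and 43.9 CPM with TGF-β alone. With TGF-β present, SCF raised Atp6v0a1 by 0.57 ± 0.19 (adjusted p = 0.0329), Atp6v0b by 0.39 ± 0.13 (adjusted p = 0.0382), Atp6v0e by 0.36 ± 0.12 (adjusted p = 0.0357) and Atp6v1a by 0.47 ± 0.15 (adjusted p = 0.0336). Against IL-3, the SCF values of Atp6v0b, Atp6v0e and Atp6v1a were 0.42 ± 0.15, 0.43 ± 0.13 and 0.49 ± 0.17 and missed the threshold (adjusted p = 0.0846, 0.0523 and 0.0740). All 7 tested V0 genes had positive fold changes with SCF, with a median of 0.42, and so did 8 of 9 V1 genes, with a median of 0.19.

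TGF-β added to SCF lowered 3 of 16 pump genes (18.8%), where 5.34% of all genes were called lower. Atp6v1e1, a stalk subunit of V1, stood at 102 and 99.7 CPM in IL-3, 129.9 and 132 CPM with SCF, 94.2, 79.6, 74.2 and 76.1 CPM with both factors, and 69.9 and 91.7 CPM with TGF-β alone. Both SCF libraries were the highest of the 10, and the change was -0.69 ± 0.13 (adjusted p = 0.00221). Atp6v0a2 was at 119.0 and 119.1 CPM with SCF and between 77.2 and 87.0 CPM with both factors (-0.50 ± 0.14, adjusted p = 0.0242), and at 59.0 and 78.6 CPM with TGF-β alone against 128 and 108 CPM in IL-3. Atp6v1a, the ATP-hydrolysing subunit, fell by 0.48 (SE 0.14, adjusted p = 0.0394). Atp6v0a2 and Atp6v0a1, which are alternative copies of 1 subunit, differed in which factor they passed the test for: Atp6v0a2 was at 0.00 ± 0.16 with SCF, and Atp6v0a1 was at -0.29 ± 0.16 with TGF-β added to SCF and 0.01 ± 0.22 with TGF-β alone. The difference between the copies was not tested. Atp6v0a2 shares 9.9% of its exon length with an opposite-strand antisense gene, and Atp6v0b shares 11.8% with Gm12841.

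The transcription factors were low. Tfeb had 3 and 0 counts in IL-3, 2 and 0 with SCF, 1, 0, 0 and 0 with SCF and TGF-β, and 0 and 1 with TGF-β alone, too few for the filter, and it was not tested. Tfe3, its close relative, stood at 49.4 and 53.7 CPM in IL-3, 45.3 and 43.2 CPM with SCF, 33.9, 32.4, 39.97 and 39.4 CPM with both factors, and 50.5 and 39.3 CPM with TGF-β alone. The libraries with both factors lay below both SCF libraries, but the change was not called (-0.29 ± 0.17, adjusted p = 0.368). Of the other family members, Mitf, the mast cell member, stood at 94.1 to 112 CPM in IL-3 and 65.2 to 70.7 CPM with SCF and fell by 0.61 (SE 0.18, adjusted p = 0.0404), and Tfec had 0 counts in every library.

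Other genes of the pathway were read from lists of hydrolases, membrane proteins, pump partners, sorting factors and regulators. Of 28 other tested hydrolases and cofactors, 0 rose and 9 fell when TGF-β was added to SCF (median -0.26), where 3.92% of all genes were called higher and 5.34% lower. The list and the 9 include Gnpda1, whose product is a cytosolic enzyme of amino sugar metabolism and not a lysosomal hydrolase. The largest falls were those of the iduronate sulfatase Ids (-1.18 ± 0.15, adjusted p = 6.30e-05), the acid sphingomyelinase Smpd1 (-0.88 ± 0.14, adjusted p = 0.000505), the α-galactosidase Gla (-0.79 ± 0.18, adjusted p = 0.00937) and Naglu (-0.75 ± 0.20, adjusted p = 0.0227). Of 27 other membrane genes, 2 rose and 0 fell, namely Litaf (2.28 ± 0.22, adjusted p = 2.45e-06) and the tetraspanin Cd63 (0.46 ± 0.10, adjusted p = 0.00646), which run against the direction of Lamp2 and Laptm5. Among 13 pump partners the accessory subunit Atp6ap1 fell (-0.62 ± 0.11, adjusted p = 0.00177), among 22 sorting genes Vps39 fell (-0.69 ± 0.14, adjusted p = 0.00357), and among 21 regulators Sqstm1 fell (-0.61 ± 0.11, adjusted p = 0.00172); 0 rose in these lists. In each of the last 3 lists the single fall is a share near the background.

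With SCF against IL-3, where 5.71% of all genes were called higher and 3.46% lower, 4 of the 28 other hydrolases rose and 1 fell, the latter a share near the background. Gla rose by 2.26 ± 0.26 (adjusted p = 5.55e-05), from 10.3 to 11.8 CPM in IL-3 to 51.8 to 53.9 CPM. Progranulin (Grn) rose by 1.31 ± 0.13 (adjusted p = 1.90e-05), while the heparan sulfatase Sgsh fell by 1.28 (SE 0.26, adjusted p = 0.00608). Gnpda1, the cytosolic enzyme on the list, rose by 0.99 ± 0.18 (adjusted p = 0.00208) and is 1 of the 4. The mannose 6-phosphate receptor Igf2r, which sorts enzymes to lysosomes, fell by 1.78 (SE 0.41, adjusted p = 0.0115), from 21.1 to 27.9 CPM to 4.98 to 9.40 CPM, and Gga3, an adaptor of the same route, by 1.01 (SE 0.27, adjusted p = 0.0284). The pump partner Tmem9 fell by 0.70 (SE 0.15, adjusted p = 0.00905), and of the 27 membrane genes Cd68 and Cd63 rose and 0 fell. For TGF-β alone against IL-3, 2.12% of all genes were called lower and 1.36% higher. Of the 28 hydrolases 1 fell, Ids (-0.70 ± 0.18, adjusted p = 0.0444), a share near the background, and 0 rose. Of the 27 membrane genes 2 rose, Litaf (2.88 ± 0.26, adjusted p = 5.36e-06) and Cd63 (0.85 ± 0.11, adjusted p = 0.000314), and 0 fell. The other 3 lists had 0 calls. Both factors against TGF-β alone, where 13.3% of all genes were called higher and 11.4% lower, gave 4 higher and 5 lower among the hydrolases, 5 and 0 among the membrane genes, 1 and 4 among the pump partners, 4 and 2 among the sorting genes, and 2 and 4 among the regulators. There Grn (1.17 ± 0.12, adjusted p = 5.95e-06), Gla (1.77 ± 0.28, adjusted p = 0.000194), Sgsh (-1.55 ± 0.20, adjusted p = 4.40e-05) and Igf2r (-2.23 ± 0.33, adjusted p = 0.000135) had the same sign as with SCF against IL-3, in libraries that the other comparison did not use. No gene of the 5 lists was called between the doses or in the interaction.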

How the data were processed

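Cultured mast cells were lysed and made into SmartSeq2 libraries, sequenced as paired ends of 38 bases, per the labels' protocols. The authors deposited read counts, 1 value per gene and library. The submitters' processing notes name STAR, HTSeq, DESeq2 and the build GRCm38 (mm10); their versions, the annotation release and the strand setting were not given in the sources used. The 5 rows that name no gene were left out, and 16.4% to 26.6% of all counted reads fell to genes (1237382 to 2323916 per library). Symbols, coordinates and exon lengths came from a GENCODE annotation of GRCm38, and promoter windows from RefSeq.

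The fit used edgeR 4.0.16 in R 4.3.3: TMM scaling, the filterByExpr filter, and the quasi-likelihood F test. Each of 6 groups had its own mean, and the 10 libraries left 4 residual degrees of freedom at a common biological coefficient of variation of 0.126. Benjamini-Hochberg adjustment ran over the 11247 tested genes within each of 6 comparisons, with calls at 0.05. CPM values use TMM-scaled library sizes. The standard error is the absolute log2 fold change divided by the square root of F. The procedure was tested on simulated data.

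Named members were those called in any comparison and reaching a group mean of 10 CPM there, together with fixed anchors (Lamp1, Lamp2, Tfeb, Tfe3, Mcoln1, Laptm5, Psap and the subunit families of the pump), and up to 4 called genes per other list and comparison. The members and lists were chosen with earlier results of these data known. Floors cover counting error alone, and PCR copies were not marked by molecular identifiers. The ± standard errors come from the fit and include the spread between libraries. Alternatives were the size factors and the Wald test of DESeq2 1.42.0, no filter on low counts, a block for the replicate number of the labels, and a fit without each single library. A fit without loci of ribosomal RNA and named repeats was chosen after the data were seen. Some called genes of the other lists are not reported here. Same-numbered libraries deviated together among the 3 SCF-containing groups (correlations 0.197 to 0.231) and not between IL-3 and these groups (-0.003 to 0.022), and nothing in the labels says what a number marks.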

Additional observations from a re-analysis of the deposited data

How the results depend on the processing

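Of 33 calls on members, 7 held in all 15 alternatives: Glb1, Hexa, Neu1, Gm2a and Atp6v1e1 with TGF-β added to SCF, Gm2a with TGF-β alone, and Galns with both factors against TGF-β alone. The other 26 were lost in at least 1 and 0 reversed; DESeq2 (Wald test) lost 18, DESeq2 size factors 1, no filter 3, and each left-out library 7 to 12, while the replicate block and the fit without ribosomal RNA and repeat loci lost 0. With the replicate block SCF against IL-3 raised 12 members in place of 5, TGF-β added to SCF lowered 15 in place of 13, and 1 member, Lamp1, was called in the interaction (1.41 ± 0.28, adjusted p = 0.0129); all genes called were 5 for dose, 718 for TGF-β alone and 102 for the interaction. With DESeq2 the members called were 3 higher for SCF against IL-3, 2 lower for TGF-β alone, and 1 higher and 0 lower for both factors against TGF-β alone, and all genes called were 471 (1031 with edgeR) for SCF against IL-3, 532 (1042) for TGF-β added to SCF, 0 (2) for dose, 225 (391) for TGF-β alone and 1518 (2780) for both factors against TGF-β alone. With no filter 2 members were lower for both factors against TGF-β alone and 1 was higher in the interaction, and all genes called were 8 for dose, 601 for TGF-β alone and 125 (33 with the filter) for the interaction. Leaving out 1 library gave 0 to 6 members higher and 0 to 1 lower for SCF against IL-3, 8 to 14 lower for TGF-β added to SCF, 1 to 4 lower for TGF-β alone, 1 to 7 higher and 0 to 5 lower for both factors against TGF-β alone, and 0 to 1 higher in the interaction. All genes called then ranged from 237 to 1055 for SCF against IL-3, 516 to 1057 for TGF-β added to SCF, 0 to 5 for dose, 143 to 442 for TGF-β alone, 1278 to 2799 for both factors against TGF-β alone and 0 to 30 for the interaction. Uncalled members changed sign when a library was left out: for SCF against IL-3 Mcoln1 (-0.032 to 0.16), Psap (-0.13 to 0.26) and Lamp1 (-1.28 to 0.21), and for TGF-β added to SCF Lamp1 (-0.68 to 0.81) and Psap (-0.16 to 0.0043). The cause of these changes was not tested. Depth limits members under about 3 counts per library, and single libraries limit TGF-β alone.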
